A study of Mus musculus with 6 samples.

Results

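Complement and coagulation proteins were examined across liver samples of mice on 2 diets, as 53 genes taken by name from the array's probes. They are the complement factors and clotting factors that hepatocytes secrete, the C1q chains and complement receptors of macrophages, and the clotting and fibrinolysis proteins of vessel walls and leukocytes. They were covered by 69 of 39429 probes and made up 53 of 31829 gene names. The restricted mice were 3 male C57BL/6 mice on a moderate restricted carbohydrate diet, to which the title of the series adds a mixture of phytochemicals described as calorie restriction mimetics, and the controls were 3 male C57BL/6 mice on a LabDiet control diet. The titles of all 6 samples, controls included, call the diet supplemented and do not name the supplement. Each of the 6 mice entered the study at the age of 5 weeks. All 6, controls included, received a transposon vector with human HrasG12V, shp53 and GFP4 through the tail vein by hydrodynamic injection, a way of delivering DNA to liver cells that gives a liver cancer model. The RNA came from liver outside the tumours. The sample labels give 1 week on the diet before the injection and 5 weeks of diet before the end, and the series text gives 2 weeks and 4 weeks. No group without the vector was analysed here.

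Complement is a chain of plasma proteases and binding proteins that marks microbes and damaged cells. The classical pathway starts when C1q, with its proteases C1r and C1s, binds a target. The lectin pathway starts with mannose-binding lectins and their MASP proteases, and both lead through C3 to the membrane attack complex of C5b, C6, C7, C8 and C9. Coagulation is a related chain of proteases that ends with thrombin turning fibrinogen into fibrin, which plasmin then dissolves. Hepatocytes make most of the plasma proteins of both chains, whereas C1q comes mainly from macrophages, in the liver the Kupffer cells.

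Levels are log2 signal over the 75th percentile of the array (the scanner's processed signal on one colour, Cy3), and differences are log2, restricted minus control, with the SE of limma's fit over 3 mice per diet. A gene was called when its Benjamini-Hochberg adjusted p over all 19616 features tested was under 0.05. P-values measure the spread between these mice. Of the 53 genes 52 were tested; F2rl1, the thrombin receptor relative PAR2, was well above background on no array. The 4 tested genes C5ar1, F13a1, Plat and Plau entered only because they were well above background in all control mice, and a gene that enters in that way had to differ.

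Arrays of the same diet correlated at 0.976 to 0.988 and of different diets at 0.925 to 0.947, and the diet comparison called 27.5% of all features, 12.8% as lower and 14.6% as higher on the restricted diet, around a median difference of 0.12. One slide held all 3 control mice and restricted mouse 1, and the other slide held restricted mice 2 and 3, so that only restricted mouse 1 can be compared with the controls within a slide. On slide 1 alone 7.87% of features were called lower and 4.14% higher. Of 12 hepatocyte markers 1 was called higher and none lower, and 6 were saturated on all arrays; the other 6 averaged 6.07, 5.62 and 5.39 in the restricted mice and 5.34, 4.97 and 5.17 in the controls.

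Of the 52 genes, 13 (25%) were called lower and 7 (13.5%) higher on the restricted diet, against 12.8% and 14.6% of all features. Among the 34 genes of hepatocyte-made factors 3 were called lower, 8.82%, and 4 higher, 11.8%. Their median difference was 0.27, and 0.15 over the 29 that were not saturated on all arrays. The 5 saturated on all arrays count in those shares, although a difference could not be read in them and none was called. Among the 18 tested genes outside those groups 10 were lower, 3 were higher and the median difference was -1.73, or -1.50 with the 4 that entered through the control mice at their bounds; without those 4, 6 of 14 were lower. The signals of the diets did not overlap for 26 of the 52 genes, against 44.8% of all features. The restricted mice were lower in 16 of the 52 and higher in 10 of the 52, against 18.8% and 26.1% of all features. The 16 include the 4 that entered through the control mice.

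**Figure D1:**
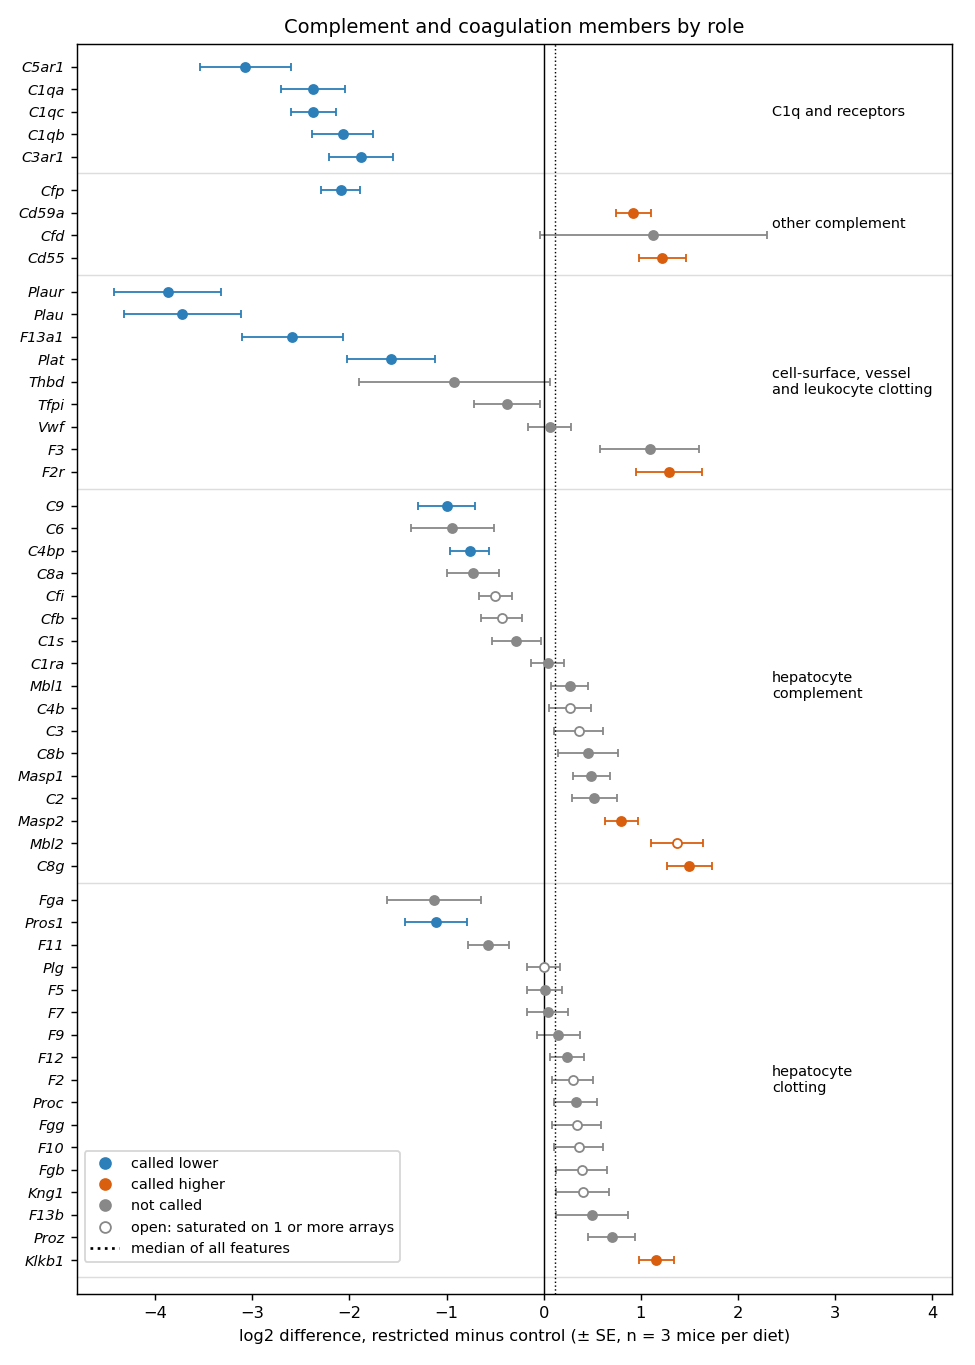
Log2 difference of each of the 52 tested genes (x axis, restricted minus control, with the SE of the fit, n = 3 mice per diet), grouped by role down the page. Blue points were called lower, orange points higher and grey points were not called; open points were saturated on at least 1 array, C5ar1, F13a1, Plat and Plau stand at their measured differences although dim in restricted mice, and the dotted line is the median of all features, 0.12. All 5 C1q and receptor genes lie at or below -1.88, and the 34 hepatocyte-made factors lie between -1.13 and 1.50.

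The C1q chains are shown first by the sequence upstream of 2 of their genes, because the 3 genes sit side by side and differed together. The probes of C1qa, C1qb and C1qc span 15.9 kb of chromosome 4 (mm9, minus strand), at chr4:136452409-136452468, chr4:136436578-136436637 and chr4:136445766-136445825. The 250 bases before the start of C1qb (RefSeq, GRCm38.p6, chr4:136886201-136886450, minus strand) and of C1qc (chr4:136892915-136893164, minus strand) follow, 5′ to 3′, with capitals at each match to GAGGAA, the core of the sites bound by the myeloid transcription factor PU.1, or to its reverse complement TTCCTC.
C1qb: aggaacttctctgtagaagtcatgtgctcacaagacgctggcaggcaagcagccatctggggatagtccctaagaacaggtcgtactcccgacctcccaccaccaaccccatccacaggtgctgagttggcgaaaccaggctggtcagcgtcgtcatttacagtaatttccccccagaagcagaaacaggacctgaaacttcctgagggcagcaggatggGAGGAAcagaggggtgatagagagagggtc
C1qc: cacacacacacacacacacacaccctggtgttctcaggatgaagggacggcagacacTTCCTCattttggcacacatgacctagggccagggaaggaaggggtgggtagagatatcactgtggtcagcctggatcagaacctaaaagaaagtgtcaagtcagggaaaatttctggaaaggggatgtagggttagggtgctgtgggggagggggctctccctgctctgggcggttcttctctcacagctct
The match in C1qb starts at position -30 and that in C1qc at position -193, counted back from the start site. Such a match lies in the same window of 23.3% of the 32851 promoters in the table, and in 6 of 13 genes outside the hepatocyte groups and 2 of 26 hepatocyte-made factors that have an entry there. The 23.3% is per window, whereas a gene counted when any of its windows matched. F13a1 and Tfpi, with 2 windows each, are among the 6. A match describes letters and not a bound site.

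All 5 genes for C1q and the complement receptors were lower in the restricted mice, with a median difference of -2.37, or -2.35 with C5ar1 at its bound. C1qa, the A chain of the 3 that form C1q, had levels of 0.25, 1.01 and -0.15 in the restricted mice, against 2.77, 3.06 and 2.37 in the control mice. It differed by -2.37 ± 0.33 and was 5.15-fold lower (adjusted p = 0.00286). C1qb had 0.07, 0.77 and -0.15 in the restricted mice, against 2.38, 2.65 and 1.87 in the controls. It differed by -2.07 ± 0.31 (adjusted p = 0.00359). C1qc, read from 10 spots per array, had 1.42, 2.05 and 1.46 in the restricted mice, against 3.89, 4.26 and 3.89 in the controls. It differed by -2.37 ± 0.23 (adjusted p = 0.000771). In each of the 3 chains every restricted mouse lay below every control mouse, and mouse 2 was the highest within both diets.

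C3ar1 and C5ar1 encode the receptors through which leukocytes sense the complement fragments C3a and C5a. C3ar1 had levels of -4.30, -3.44 and -4.07 in the restricted mice, against -2.31, -2.39 and -1.46 in the controls. It differed by -1.88 ± 0.33 (adjusted p = 0.00689). C5ar1 had -4.77, -5.16 and -6.66 in the restricted mice, against -2.67, -2.33 and -2.38 in the controls. Both receptors were dim. C5ar1 was well above background in restricted mouse 1 alone of the restricted mice. Its measured difference was -3.07 ± 0.47 (adjusted p = 0.00382). It was 5.1-fold lower at its bound, and the bound itself was not tested. For such a bound the control mean was set against the mean of the restricted arrays. Any signal not well above background was first lifted to the dimmest signal that was on its array, unless it was brighter already. Plat in restricted mouse 3 was brighter already, at -4.58 against -4.8, so the bound is an estimate and not a strict lower limit. Normexp background correction was run with an offset of 50 added to every signal, which narrows log2 differences of dim signals. With it the difference was -0.72 for C3ar1 and -0.71 for C5ar1, both still called (adjusted p = 0.0409 and 0.0214).

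**Figure D2:**
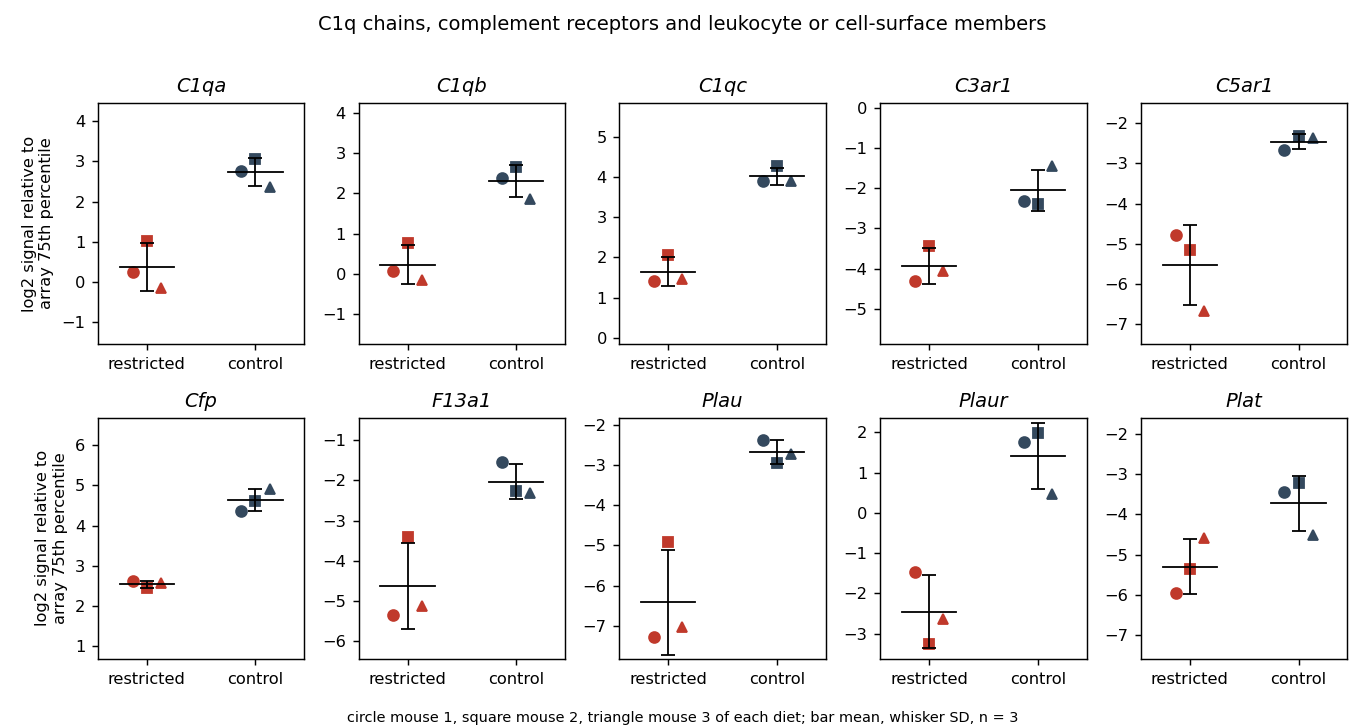
Level in each mouse (y axis, log2 signal over the 75th percentile of the array; every panel spans 6 log2 units) of the C1q chains, complement receptors, properdin and 4 clotting or fibrinolysis genes, restricted mice in red on the left and control mice in dark blue on the right. Symbols are the mice, bars the mean and whiskers the SD of 3 mice. The 10 genes are those called lower outside the hepatocyte groups, and C5ar1, F13a1, Plat and Plau entered through the control mice alone. In each of these genes, picked by their call, the restricted mice lie below the controls, as in 18.8% of all features. The gap is least in Plat, whose highest restricted mouse is at -4.58 and lowest control at -4.50.

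The macrophage and Kupffer cell markers moved in the same direction: 14 of 14 were called lower, with differences between -3.70 and -1.42 and a median of -2.54, and their mean level was 0.41, 0.84 and 0.37 in the restricted mice, against 3.08, 3.35 and 2.82 in the controls. All 14 were well above background on all 6 arrays. In bulk liver RNA, fewer cells of a type and less RNA per cell cannot be told apart, and the part of cell numbers in the lower C1q levels was not tested. On slide 1 alone, restricted mouse 1 against the 3 controls, the differences were -2.49 for C1qa, -2.23 for C1qb, -2.59 for C1qc, -2.25 for C3ar1 and -2.31 for C5ar1, each called with an adjusted p between 0.00837 and 0.0343.

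**Figure D3:**
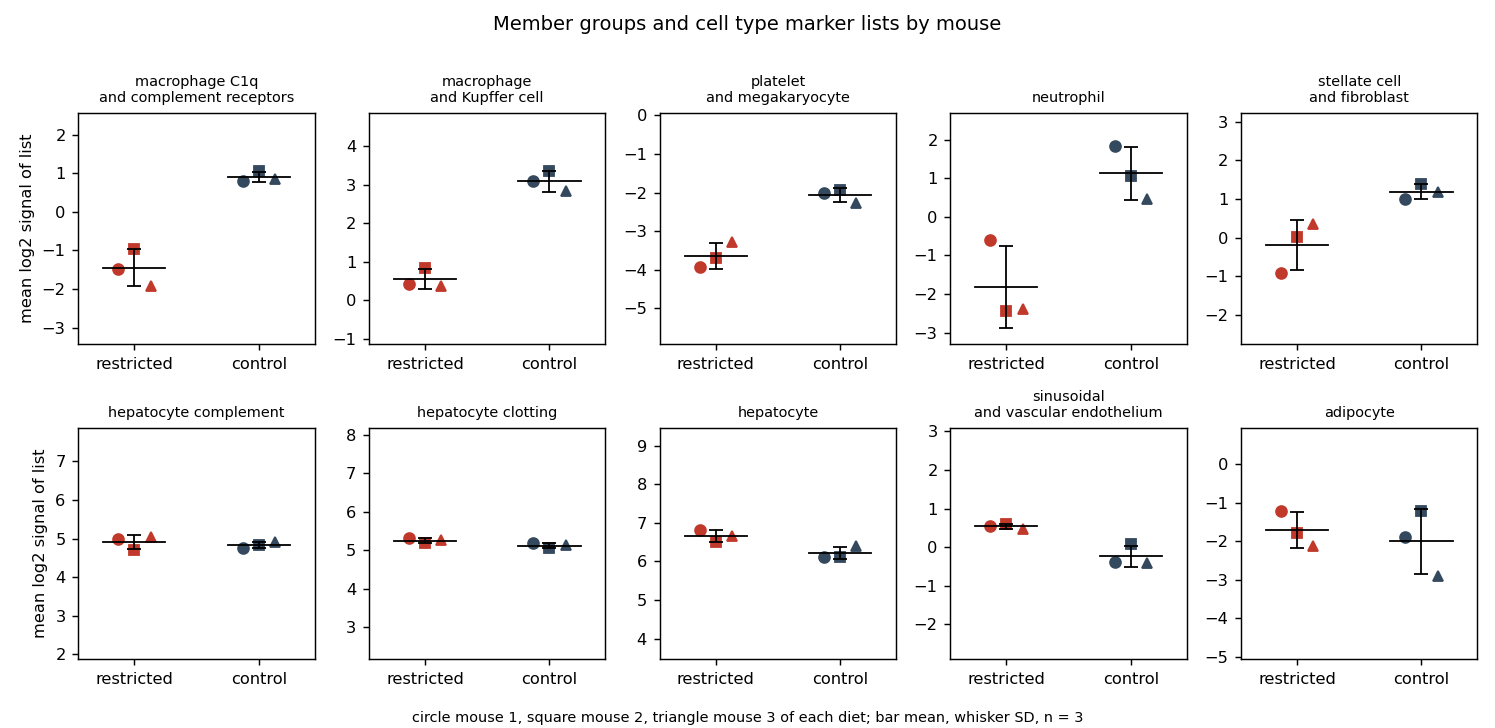
Mean log2 level per mouse of 3 groups of complement and clotting genes and of 7 cell type marker lists (y axis, every panel spans 6 log2 units), restricted mice in red on the left and control mice in dark blue on the right, with the mean and SD of 3 mice. The C1q and receptor group, at -1.47, -0.95 and -1.91 in the restricted mice and 0.81, 1.05 and 0.86 in the controls, separates the diets as the macrophage list does. The 2 hepatocyte groups of factors overlap or touch between the diets. Their means include genes saturated on all arrays, 4 of 17 for clotting and 1 of 17 for complement, in which a difference could not be read. So do 6 of 12 markers in the hepatocyte list.

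Among the other complement proteins, Cfp was lower and both membrane regulators were higher. Cfp, the gene of properdin, which stabilises the C3 convertase of the alternative pathway and is made by leukocytes, had levels of 2.62, 2.44 and 2.56 in the restricted mice, against 4.36, 4.62 and 4.92 in the controls. It differed by -2.09 ± 0.20 (adjusted p = 0.00067). Cd55, which speeds the decay of complement convertases on the body's own cells, had -0.14, -0.16 and -0.15 in the restricted mice, against -1.69, -0.87 and -1.56 in the controls. It differed by 1.22 ± 0.24 (adjusted p = 0.0108). Cd59a, which blocks the membrane attack complex on the body's own cells, had 1.84, 2.02 and 1.75 in the restricted mice, against 1.06, 1.07 and 0.72 in the controls. It differed by 0.92 ± 0.18 (adjusted p = 0.0108). Neither regulator overlapped between the diets.

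Cd55 and Cd59a each have a close copy in the mouse genome, and a probe may also read signal from its copy. Cd55b differed by 0.86 ± 0.36 (adjusted p = 0.12) and Cd59b by 1.08 ± 0.29 (adjusted p = 0.0339). On slide 1 alone the differences of the regulators were of similar size, 1.23 for Cd55 and 0.89 for Cd59a, but neither was called there (adjusted p = 0.13 and 0.143), whereas Cfp was called at -2.02 (adjusted p = 0.0202). Cfd, the gene of adipsin, the protease that cleaves factor B and a product mainly of fat cells, varied widely within the restricted diet, with 0.39, -1.65 and -4.64 in the restricted mice, against -3.67, -2.11 and -3.52 in the controls. Its difference of 1.13 ± 1.17 was not called (adjusted p = 0.51), it was 3.49 on slide 1 alone (adjusted p = 0.0274) and -0.05 without restricted mouse 1. Of 6 fat cell markers 2, Adipoq and Plin1, did not pass the filter and none of the other 4 was called.

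Of the 17 complement factors made by hepatocytes 3 were called higher, 2 lower and 12 were not called, with a median difference of 0.27, or 0.15 without C3, which was saturated on all arrays. The genes called higher were C8g and the lectin pathway genes Mbl2 and Masp2. Mbl2, a mannose-binding lectin that recognises sugars on microbes, had levels of 7.34, 7.31 and 7.44 in the restricted mice, against 5.46, 6.47 and 6.07 in the controls. It differed by 1.37 ± 0.27 (adjusted p = 0.0105). Its probe was saturated in restricted mouse 2, which makes the level there a lower limit. Masp2, the gene of the protease that the lectins carry, had 4.30, 4.18 and 4.24 in the restricted mice, against 3.34, 3.34 and 3.65 in the controls. It differed by 0.80 ± 0.17 (adjusted p = 0.0142), and its 2 dimmer probes gave 0.81 and 0.88. The probe at 0.88 is listed to another transcript of the gene than the brightest probe. Its levels were 0.37, 0.64 and 1.06 in the restricted mice, against -0.14, -0.56 and 0.14 in the controls. Which product each transcript encodes was not examined.

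The other 2 lectin pathway genes listed, Mbl1 at 0.27 ± 0.19 and Masp1 at 0.49 ± 0.19, were not called (adjusted p = 0.336 and 0.106), and the second probe of Masp1 gave -0.08. C4bp, whose product binds C4b and limits the classical and lectin pathways, was lower, with 5.65, 5.55 and 5.69 in the restricted mice, against 6.74, 6.30 and 6.13 in the controls. It differed by -0.76 ± 0.20 (adjusted p = 0.0327).

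Of the 5 membrane attack genes measured among these factors 1 was called higher, 1 lower and 3 were not called, and whether they differed from each other was not tested. C8 is built of an alpha, a beta and a gamma chain from 3 genes; C8a and C8b were picked here after their values were seen, to stand beside C8g. C8g had levels of 7.23, 7.08 and 7.23 in the restricted mice, against 5.25, 5.79 and 5.99 in the controls. It differed by 1.50 ± 0.23 (adjusted p = 0.00369), and its second probe gave 1.40. C8a had 4.48, 3.65 and 4.55 in the restricted mice, against 4.98, 4.86 and 5.03 in the controls. It differed by -0.73 ± 0.27 and was not called (adjusted p = 0.0854), with -0.91 from its second probe. C8b had 4.19, 3.08 and 4.12 in the restricted mice, against 3.38, 3.21 and 3.43 in the controls. It differed by 0.46 ± 0.31 (adjusted p = 0.32). Thus the gamma chain stood apart upward in all restricted mice, the alpha chain stood apart downward without passing the test, and the beta chain overlapped between the diets.

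C9, whose copies form the pore of the complex, had 2.31, 1.53 and 2.59 in the restricted mice, against 2.95, 3.29 and 3.17 in the controls. It differed by -1.0 ± 0.29 (adjusted p = 0.0425). C6, which joins C5b at the start of the complex, had 0.76, -0.90 and 0.48 in the restricted mice, against 1.33, 1.09 and 0.73 in the controls. It differed by -0.94 ± 0.43 and was not called (adjusted p = 0.155). In all 4 of C6, C8a, C8b and C9 the lowest of the 6 values was that of restricted mouse 2. Without that mouse the difference was -0.43 for C6, -0.44 for C8a and -0.69 for C9, none of them called, and 0.82 for C8b, which was then called (adjusted p = 0.0434).

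The sequences before the C8 genes are shown because C8g was called and C8a and C8b were not. Capitals mark matches to GTTAAT, a half-site of the hepatocyte transcription factor HNF1, or to its reverse complement ATTAAC. The sequence GAGGAA was searched as well and is in none of the 4. They come from RefSeq (GRCm38.p6), 250 bases before each start, 5′ to 3′: C8a at chr4:104876399-104876648 on the minus strand, C8b at chr4:104766067-104766316 on the plus strand, and C8g on the minus strand at chr2:25500507-25500756 for its first listed start and chr2:25501720-25501969 for its second.
C8a: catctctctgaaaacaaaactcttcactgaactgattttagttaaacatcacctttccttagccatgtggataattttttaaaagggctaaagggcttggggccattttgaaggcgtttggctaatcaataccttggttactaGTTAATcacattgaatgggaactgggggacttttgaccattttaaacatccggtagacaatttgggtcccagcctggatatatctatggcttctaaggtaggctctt
C8b: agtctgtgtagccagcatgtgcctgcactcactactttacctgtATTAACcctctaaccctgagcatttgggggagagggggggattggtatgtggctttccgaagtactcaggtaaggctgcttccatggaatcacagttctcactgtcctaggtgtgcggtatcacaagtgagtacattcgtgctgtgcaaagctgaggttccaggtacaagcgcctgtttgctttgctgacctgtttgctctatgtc
C8g, first start: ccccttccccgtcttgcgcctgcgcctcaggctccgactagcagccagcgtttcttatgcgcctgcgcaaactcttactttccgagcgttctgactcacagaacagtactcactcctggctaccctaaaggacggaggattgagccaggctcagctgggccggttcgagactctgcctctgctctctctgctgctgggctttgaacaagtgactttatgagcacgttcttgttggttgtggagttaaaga
C8g, second start: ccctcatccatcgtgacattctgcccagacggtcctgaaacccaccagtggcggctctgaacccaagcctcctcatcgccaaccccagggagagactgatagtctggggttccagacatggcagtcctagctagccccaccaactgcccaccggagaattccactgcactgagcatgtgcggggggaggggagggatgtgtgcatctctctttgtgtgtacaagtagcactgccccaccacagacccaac
The match starts at position -107 in C8a and at position -206 in C8b, and these letters are in neither C8g window. C8a and C8b differed by -0.73 and 0.46, neither of them called, and a link of these letters to the levels was not tested. A match to GTTAAT lies in 6.43% of all 32851 windows, in 8 of 26 hepatocyte-made factors with an entry and in 1 of 13 other genes, Cfp. Here too a gene counted when any of its windows matched.

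**Figure D4:**
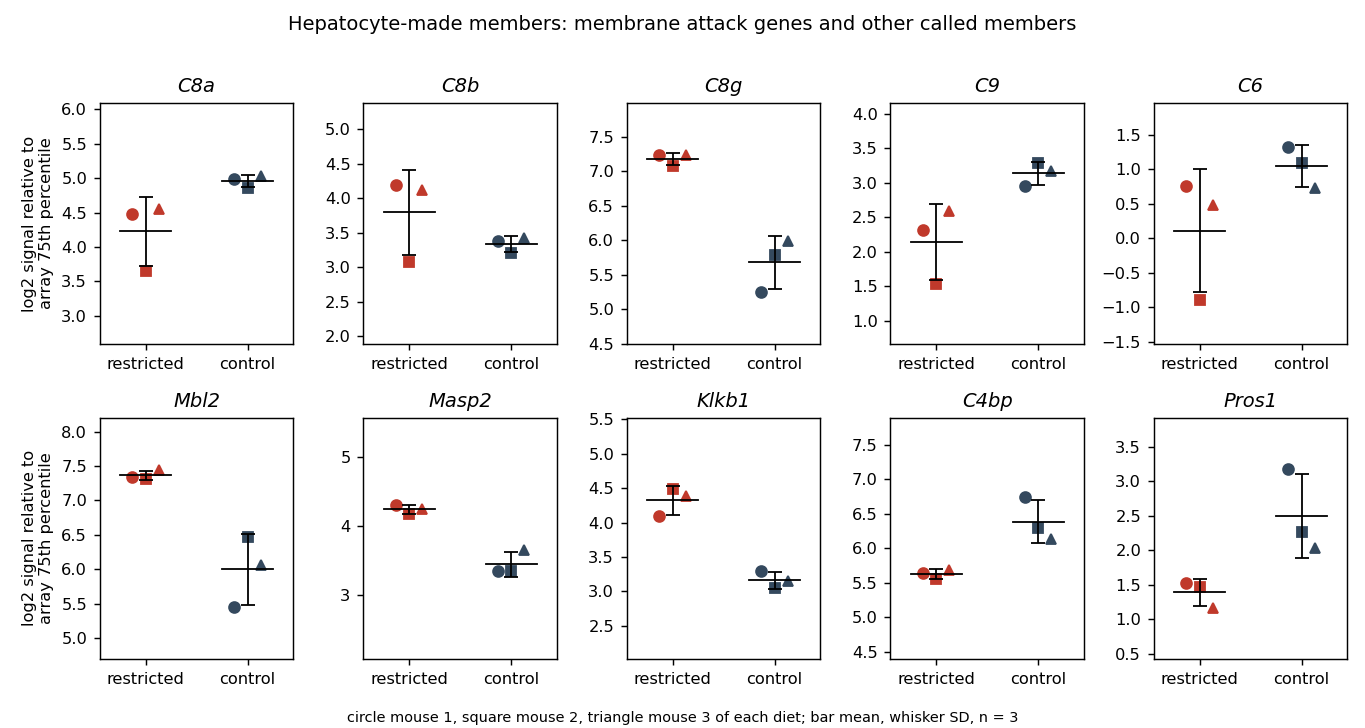
Level in each mouse (y axis, log2 signal over the 75th percentile of the array; every panel spans 3.5 log2 units) of the 3 C8 chains, C9, C6 and the 5 other called hepatocyte-made factors, restricted mice in red on the left and control mice in dark blue on the right, with the mean and SD of 3 mice. C8g, Mbl2, Masp2 and Klkb1 lie higher in all restricted mice, C9, C4bp and Pros1 lower, and restricted mouse 2, the square, is the lowest point of C6, C8a, C8b and C9.

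The clotting factors made by hepatocytes were mostly not called: of 17 genes 1 was higher, 1 lower and 15 were not called. Of those 15, 4 were saturated on all arrays, so that a difference could not be read. The median difference was 0.15 over the 13 genes that were not saturated on all arrays and 0.30 over all 17. Klkb1, the gene of plasma prekallikrein, whose active form cleaves factor XII at the start of the contact pathway, had 4.09, 4.49 and 4.38 in the restricted mice, against 3.29, 3.05 and 3.15 in the controls. It differed by 1.16 ± 0.18 (adjusted p = 0.00443). Pros1, the gene of protein S, the cofactor with which activated protein C inactivates factors V and VIII, had 1.53, 1.47 and 1.16 in the restricted mice, against 3.18, 2.27 and 2.03 in the controls. It differed by -1.11 ± 0.32 (adjusted p = 0.0394).

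F5, the cofactor of prothrombin activation, had 4.61, 4.44 and 4.37 in the restricted mice, against 4.70, 4.28 and 4.42 in the controls. It differed by 0.01 ± 0.18 (adjusted p = 0.982). Fga, the alpha chain of fibrinogen, spread over more than 1 log2 unit within each diet, with 5.44, 4.49 and 3.65 in the restricted mice, against 6.30, 5.48 and 5.20 in the controls. It differed by -1.13 ± 0.48 and was not called (adjusted p = 0.129). It was called without restricted mouse 1 (-1.59, adjusted p = 0.0401), but was -0.69 without restricted mouse 3 (adjusted p = 0.303) and -0.22 on slide 1 alone (adjusted p = 0.825). Its second probe gave -1.05. The 11 uncalled clotting genes that were not saturated on all arrays differed by -1.13 to 0.70, and the 11 such complement genes by -0.94 to 0.52.

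A set of 5 hepatocyte-made factors was too bright for the scanner on all 6 arrays and has no fold here: C3, F10, Fgb, Fgg and Kng1. Their levels were between 7.23 and 8.07 in the restricted mice and between 6.80 and 7.90 in the controls, and they followed the array's own scaling, highest on the array with the lowest 75th percentile (287.4, restricted mouse 3) and lowest on the array with the highest (573.6, control mouse 1). The 6 genes C4b, F2, Cfb, Cfi, Plg and Mbl2 were saturated on 1 to 5 arrays. F2, the gene of prothrombin, saturated on 3 arrays, had 7.53, 7.38 and 7.72 in the restricted mice, against 6.92, 7.29 and 7.53 in the controls. It differed by 0.30 ± 0.21 (adjusted p = 0.344). Dimmer probes that were saturated on no array gave 0.30 ± 0.17 for F10 and 0.12 ± 0.21 for Kng1, the gene of kininogen. Neither was called, and C3 had no such probe. The dimmer Kng1 probe is listed to another transcript of the gene than the saturated probe. Its mean level was 5.21 in the restricted mice and 5.1 in the controls. The C4b probe may also read its near-identical copy C4a.

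**Figure D5:**
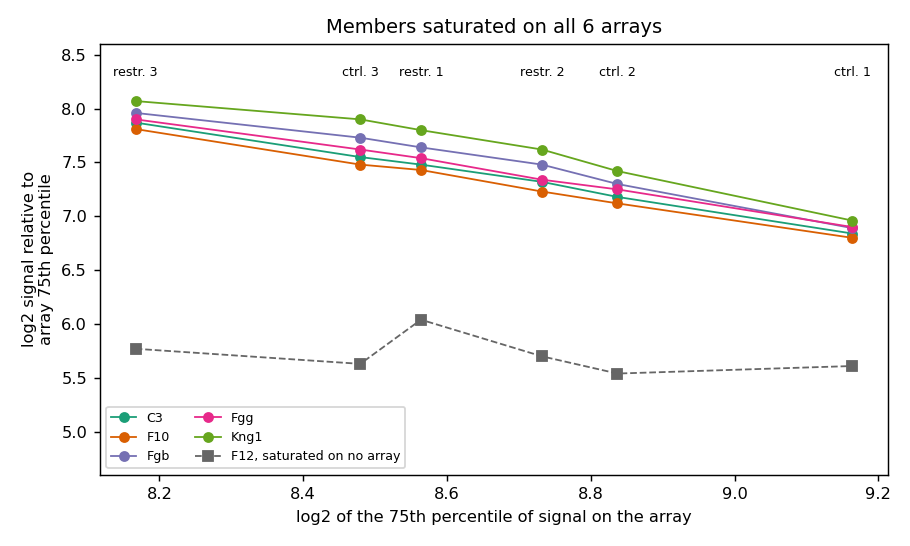
Level of the 5 genes saturated on all 6 arrays, and of F12, saturated on none (y axis, log2 signal over the 75th percentile of the array), against the log2 of that percentile on each array (x axis); the labels give the mouse, restr. for restricted and ctrl. for control. The 5 saturated genes fall along a line as the percentile grows, in the order of the arrays and not of the diets, while F12 stays between 5.54 and 6.04.

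Of the 9 tested clotting and fibrinolysis genes of cell surfaces, vessels and leukocytes 4 were called lower, 1 higher and 4 were not called. Plau, Plat and F13a1 entered through the control mice alone, and of the other 6 genes 1 was lower and 1 higher. In the urokinase system, urokinase (Plau) bound to its receptor (Plaur) turns plasminogen into plasmin at the cell surface. Plaur had -1.47, -3.26 and -2.64 in the restricted mice, against 1.76, 1.99 and 0.48 in the controls. It differed by -3.87 ± 0.55 and was 14.61-fold lower (adjusted p = 0.00301). Plau had -7.28, -4.92 and -7.04 in the restricted mice, against -2.37, -2.96 and -2.73 in the controls. It was not well above background in any restricted mouse. Its measured difference was -3.72 ± 0.60 (adjusted p = 0.00481), and it was 4.72-fold lower at its bound, which was not tested.

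Plat, the gene of tissue plasminogen activator, had -5.96, -5.35 and -4.58 in the restricted mice, against -3.45, -3.23 and -4.50 in the controls. It too was not well above background in any restricted mouse. Its measured difference was -1.57 ± 0.45 (adjusted p = 0.0394), and it was 2.18-fold lower at its bound, which was not tested. F13a1, the catalytic chain of factor XIII, which cross-links fibrin and is made by macrophages and megakaryocytes, had -5.35, -3.41 and -5.11 in the restricted mice, well above background in 1 of them, against -1.53, -2.27 and -2.30 in the controls. Its measured difference was -2.59 ± 0.52 (adjusted p = 0.0111), and it was 5.32-fold lower at its bound, which was not tested. With normexp the difference was -0.83 for F13a1 and -0.70 for Plau, both still called (adjusted p = 0.0111 and 0.0177), but -0.16 for Plat, which was not (adjusted p = 0.547). F13b, the chain of factor XIII that hepatocytes make, differed by 0.50 ± 0.37 and was not called (adjusted p = 0.358). Whether the 2 chains of factor XIII differed from each other in their response was not tested.

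F2r, the thrombin receptor PAR1, was the only gene of its group called higher, with 2.00, 0.88 and 1.47 in the restricted mice, against 0.10, 0.62 and -0.24 in the controls. It differed by 1.29 ± 0.34 (adjusted p = 0.0309). F3, tissue factor, which starts clotting when blood meets it, had -1.90, 0.24 and -0.62 in the restricted mice, against -2.12, -1.55 and -1.88 in the controls. It differed by 1.09 ± 0.51 and was not called (adjusted p = 0.157). Restricted mouse 1 lay among the controls for F3, and the difference was -0.05 on slide 1 alone and 1.66 without that mouse (adjusted p = 0.0172). Thbd, thrombomodulin, which turns thrombin towards protein C, had 0.91, -2.25 and -2.28 in the restricted mice, against 0.07, 0.75 and -1.67 in the controls. It differed by -0.92 ± 0.98 (adjusted p = 0.521), and by 1.20 on slide 1 alone. Vwf, the factor that tethers platelets to vessel walls, had 0.09, 0.57 and 0.05 in the restricted mice, against 0.14, 0.44 and -0.03 in the controls. Its difference was 0.06 ± 0.22 (adjusted p = 0.875). Tfpi, the inhibitor of tissue factor, was the remaining gene not called (-0.38 ± 0.34, adjusted p = 0.435).

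Markers of other cells moved beside these genes. Of 6 tested platelet and megakaryocyte markers 5 were called lower, with a mean list level of -3.94, -3.70 and -3.29 in the restricted mice, against -2.01, -1.92 and -2.26 in the controls. Of 8 neutrophil markers 5 were lower and 1 higher, with list means of -0.59, -2.45 and -2.40 in the restricted mice, against 1.85, 1.07 and 0.47 in the controls, and of 8 stellate cell and fibroblast markers 5 were lower, with list means of -0.91, 0.02 and 0.34 in the restricted mice, against 0.99, 1.38 and 1.19 in the controls. Of 10 endothelial markers 4 were called higher and none lower, with list means of 0.54, 0.60 and 0.47 in the restricted mice, against -0.39, 0.07 and -0.40 in the controls. Some markers entered only through the diet where they were brighter, and so had to differ. They were Itga2b, Gp6, Ngp, Mpo and Des through the control mice and Tek through the restricted mice. Of these Itga2b, Ngp and Mpo were among the markers called lower, and Tek was among those called higher. Their dim values are part of the list means. Restricted mouse 1 had both the highest Thbd level of its diet and the highest mean of the neutrophil list. Among the controls the highest Thbd level was in mouse 2 (0.75) and the highest neutrophil mean in mouse 1 (1.85). A link between Thbd and neutrophils was not tested. The part of any of these cells in the levels of Plau, Plaur, Plat, F13a1 or F2r was not tested.

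Within slide 1, restricted mouse 1 against the controls, fewer genes were called. On slide 1 alone 9 of the 52 genes were called lower and 2 higher, against 7.87% and 4.14% of features. Plaur (-2.88) and F2r (1.84) were called there, and so were Plau and F13a1. Plau and F13a1 were not well above background in restricted mouse 1 and were 5.38-fold and 8.48-fold lower at their bounds. The other genes called there were the 5 C1q and receptor genes and Cfp as lower and Cfd as higher. The called hepatocyte-made factors kept their direction but none was called there: C8g at 1.55 (adjusted p = 0.0608), Mbl2 at 1.34 (0.129), Masp2 at 0.86 (0.149), Klkb1 at 0.92 (0.115), C9 at -0.83 (0.159), C4bp at -0.73 (0.267) and Pros1 at -0.96 (0.305). Plat was not called either (adjusted p = 0.0584). With the slide as a block, which gives the same differences as slide 1 alone, 10 genes were called lower and 2 higher, against 9.65% and 5.71% of features.

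Of the called genes 6 lost the call when 1 mouse was left out, and of the others 5 gained one (C2, C8b, Fga, Proz and F3). C9 stayed called only without restricted mouse 3 (-1.22, adjusted p = 0.0311), and without each of the other mice in turn it differed by -1.09 to -0.69 (adjusted p = 0.071 to 0.129). C4bp stayed called only without control mouse 3 (-0.89, adjusted p = 0.0236) and otherwise differed by -0.80 to -0.58 (adjusted p = 0.0719 to 0.11). Pros1 likewise stayed called only without control mouse 3 (-1.34, adjusted p = 0.0248) and otherwise differed by -1.22 to -0.76 (adjusted p = 0.0633 to 0.109). Plat stayed called without restricted mouse 3 (adjusted p = 0.0258) or control mouse 3 (adjusted p = 0.018) and not otherwise (adjusted p = 0.0984 to 0.126). F2r stayed called without restricted mouse 2 (1.57, adjusted p = 0.0243) or control mouse 2 (1.52, adjusted p = 0.038) and otherwise differed by 1.01 to 1.28 (adjusted p = 0.0702 to 0.0895). Masp2 was not called without control mouse 1 (0.74, adjusted p = 0.0541) or control mouse 2 (0.75, adjusted p = 0.0592).

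A list of 54 further genes of both pathways was read in the same fit: of 49 tested 9 were called lower (18.4%), 8 higher (16.3%) and 32 were not called, and their median difference was -0.03. The 4 lower genes with the smallest p were Procr, the endothelial protein C receptor (-2.72 ± 0.20, adjusted p = 0.000375), Itgb2, the shared beta chain of the complement receptors CR3 and CR4 (-2.83 ± 0.24, adjusted p = 0.000506), Fcna, the lectin ficolin A made by macrophages (-2.44 ± 0.21, adjusted p = 0.000552), and Vsig4, a Kupffer cell receptor for C3b (-2.78 ± 0.26, adjusted p = 0.000675). Vsig4, for instance, had levels of 1.99, 2.67 and 1.77 in the restricted mice, against 4.74, 5.01 and 5.00 in the controls. The genes called higher included F8, clotting factor VIII, which liver endothelium makes (1.81 ± 0.26, adjusted p = 0.00292), Hgfac, a protease related to factor XII (1.03 ± 0.18, adjusted p = 0.00665) and C1qbp, a mitochondrial protein that can bind C1q (0.77 ± 0.15, adjusted p = 0.00979). F8 had levels of -2.43, -1.73 and -2.28 in the restricted mice, against -4.25, -3.64 and -3.99 in the controls.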

How the data were processed

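Total RNA of 6 livers was labelled with Cy3 and hybridised to 1-colour Agilent arrays, per the labels, of design 026655, per the file headers. The intensity values were the authors' processed signals, made per the file headers by Agilent Feature Extraction 10.7.3.1, and per the submitters' processing notes by version 9.3.2.1. The value table that was deposited equalled the mean of those signals within 0.1% for 99.67% to 99.77% of probes and was used as an alternative. Probe coordinates in the files are on mm9; names were updated through RefSeq accessions for 26055 of 39429 probes, with 3358 names changed, and promoter sequences came from RefSeq tables of GRCm38.p6.

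From the intensity of each spot that was neither a control nor an outlier, log2 was taken. Values were averaged per probe and centred on the 75th percentile of each array. A probe was kept when it was well above background on every measured array of 1 diet or both (24234), and the brightest per gene name gave 19616 features. Diets, with 3 mice each, were compared with limma 3.58.1 in R 4.3.3 with Benjamini-Hochberg adjustment at 0.05; the number of arrays limits the precision. The fit was tested on simulated data. Motifs were searched on both strands. The genes, lists, tests and named genes were chosen with earlier results of these data known, and the genes named are those of most interest in the pathway with up to 5 called per group by smallest p; the others are given by counts and ranges, or where dim, saturated or read differently by 2 probes. One gene that this rule selects is not reported here. Alternatives changed background correction, scaling, filter, moderation, weights, blocks, slide, probe choice and names, left out each mouse, and, chosen after seeing the data, took the brightest probe saturated on no array.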

Additional observations from a re-analysis of the deposited data

How the results depend on the processing

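Across 21 alternatives, the 9 genes C1qa, C1qb, C1qc, C3ar1, C5ar1, Cfp, F13a1, Plau and Plaur stayed called lower wherever they were tested. Of these C5ar1, F13a1 and Plau had entered through the control mice alone and had to differ. They were not tested where probes had to be well above background on all arrays. None of the 20 called genes changed sign. The other 11 (C8g, C9, Masp2, Mbl2, C4bp, Cd55, Cd59a, Klkb1, Pros1, Plat and F2r) lost the call under at least 1 alternative. Among the called genes the size moved by over 1.5 times in 6 cases. With normexp C3ar1 was -0.72, C5ar1 -0.71, F13a1 -0.83, Plau -0.70 and Plat -0.16, the last no longer called. These genes were dim, and the normexp offset of 50 narrows log2 differences of dim signals by construction. With quantile normalization Masp2 was 0.52 and no longer called (adjusted p = 0.0554). How much the offset made of the change, and the cause for Masp2, were not tested. Of the 32 genes not called, 12 passed under at least 1. The count of features called, 5386, was 3013 with the slide as a block, 2444 on slide 1 alone, and 3357 to 5889 without 1 mouse, lowest without control mouse 2 (3357) and restricted mouse 2 (3430). The share of calls that were higher was 53.2%, against 37.2% with the slide as a block and 34.5% on slide 1 alone. Of the genes examined, 13 were lower and 7 higher; 10 and 2 were with the slide as a block, 9 and 2 on slide 1 alone, 9 to 12 and 5 to 8 without 1 mouse, 17 and 9 with array weights, and 9 and 7 of 48 with probes well above background on all arrays. Why the slide fits called fewer was not tested beyond their construction: they rest on restricted mouse 1 alone, which is taken to vary like the controls. With the mouse number as a replicate block 15 were lower and 8 higher and 6623 features were called; deviations of same-numbered mice correlated at 0.38, 0.00 and 0.48, and restricted mouse 2 did not correlate best with its own number, so the numbers were not taken to pair the mice.

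In 13 genes, none of them called, the difference had a sign that depended on the setting, and the cause was not tested. With normexp C1ra was -0.03, F5 -0.05 and F7 -0.01. With quantile normalization C1ra was -0.25, C4b -0.03, F2 -0.06, F5 -0.29, F7 -0.13, F9 -0.04, F12 -0.09 and Fgg -0.02. Plg was 0.09 with median scaling and C1ra -0.04 with array weights. With the slide as a block, and equally on slide 1 alone, C1ra was -0.01, Plg 0.18, F3 -0.05, Thbd 1.20 and Vwf -0.09. Without 1 mouse, the range was -0.05 to 0.11 for C1ra, -0.05 to 2.47 for Cfd, -0.08 to 0.12 for F5, -0.11 to 0.21 for F7, -0.10 to 0.08 for Plg and -0.11 to 0.19 for Vwf.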
